A study of Homo sapiens with 18 samples.

Results

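The *KMT2A*-fusion leukemia program was examined as 10 genes picked by name from a table of 45372 gene symbols: *HOXA7*, *HOXA9*, *HOXA10*, *MEIS1*, *PBX3*, *MEF2C*, *MYB*, *MYC*, *CDK6* and *FLT3*. All 10 were in the table and were read in all 18 RNA sequencing libraries. The libraries came from MV4-11 and THP1, human acute myeloid leukemia (AML) cell lines that both carry a rearrangement of *KMT2A* (*KMT2A*-r AML). In MV4-11 the fusion partner is *AFF1* and *FLT3* carries an internal tandem duplication, and in THP1 the partner is *MLLT3*. Each line was given DMSO, the solvent, or 50 nM IACS-010759 (IACS), an inhibitor of respiratory complex I, for 8 or 24 h, with 3 libraries in each of the 6 groups. The time in DMSO was not stated, and the same 3 DMSO libraries of a line served both time points. Each genotype was represented by a single cell line.

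A KMT2A fusion protein joins the chromatin-binding end of KMT2A to a partner of the transcription elongation machinery, and it holds open a set of genes that are normally silenced as blood progenitors mature. Among these are the homeobox genes of the HOXA cluster, whose proteins bind DNA together with the MEIS1 and PBX3 cofactors, and the regulators *MEF2C*, *MYB* and *MYC*. *CDK6*, a G1 kinase, and *FLT3*, a receptor for a growth signal of early progenitors, are further parts of the program, and *MYC* and *MYB* drive growth and self-renewal of the blasts.

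The genes are spread over several chromosomes (positions from GRCh38, GENCODE 44, of all but *MYC*). *HOXA7* (chr7:27153716-27157936), *HOXA9* (chr7:27162438-27175180) and *HOXA10* (chr7:27170605-27180261) are neighbours on the minus strand of chromosome 7, which also holds *CDK6* (chr7:92604921-92836573, minus strand). *MEIS1* is on the plus strand at chr2:66433452-66573869, *PBX3* on the plus strand at chr9:125747345-125967377, and *MEF2C* on the minus strand at chr5:88717117-88904257. *MYB* (chr6:135181308-135219173) is on the plus strand, and *FLT3* (chr13:28003274-28100592) is on the minus strand.

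*HOXA7* and *MEIS1* were each near silent in one line and *HOXA9* was at a like level in both, so the 250 bases before the start of these 3 genes are shown, 5′ to 3′ on the gene's own strand (RefSeq, GRCh38.p14). Each RefSeq start lies inside the longer GENCODE span of its gene. Capitals mark matches to CACGTG, the E-box that *MYC* and *MAX* bind, and to TATAAA, the TATA box.
*HOXA7*, chr7:27156676-27156925, minus strand: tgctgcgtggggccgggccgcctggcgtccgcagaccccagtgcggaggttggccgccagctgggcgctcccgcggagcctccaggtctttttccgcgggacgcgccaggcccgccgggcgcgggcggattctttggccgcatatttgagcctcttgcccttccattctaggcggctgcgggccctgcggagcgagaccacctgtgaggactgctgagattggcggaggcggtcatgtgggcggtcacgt
*HOXA9*, chr7:27165538-27165787, minus strand: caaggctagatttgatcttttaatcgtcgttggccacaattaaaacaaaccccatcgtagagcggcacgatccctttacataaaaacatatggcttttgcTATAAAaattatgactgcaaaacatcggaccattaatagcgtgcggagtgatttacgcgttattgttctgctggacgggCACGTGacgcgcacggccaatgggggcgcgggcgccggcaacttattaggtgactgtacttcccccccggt
*MEIS1*, chr2:66434875-66435124, plus strand: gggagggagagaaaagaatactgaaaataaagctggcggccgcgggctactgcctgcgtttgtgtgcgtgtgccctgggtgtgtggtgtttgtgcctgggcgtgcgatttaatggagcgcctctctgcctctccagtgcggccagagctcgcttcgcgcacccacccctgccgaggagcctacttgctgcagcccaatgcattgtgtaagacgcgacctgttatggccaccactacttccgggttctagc
The stretch before *HOXA7*, a gene without a read in MV4-11, was 70.8% G and C with 28 CpG dinucleotides. That before *HOXA9*, a gene at a like level in both lines, was 48.8% G and C with 20 CpG, with an E-box 71 bases and a TATA box 150 bases before the start. That before *MEIS1*, which was nearly silent in THP1, was 59.6% G and C with 16 CpG and held neither motif. An E-box of *HOXA7* lies across its start and is cut by the end of the stretch shown. Promoter windows of 300 bases (250 before and 50 after a start) were found for 9 of the 10 genes, 17 windows in all. Of the 35116 windows of all genes, 7.26% held CACGTG and 11.5% held TATAAA on either strand. The other letters searched were TGACAG (MEIS), in 15.8% of windows, TGATTTAT (HOX with PBX), in 0.846%, and TTGCATCA (an element bound by CEBP and ATF4 dimers), in 0.866%. None of the 3 was in the stretches shown, and a match or its absence is a description of the letters only.

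The deposited unit was TPM, the share of a transcript in its library scaled to a fixed sum and already divided by gene length, so that genes can be set side by side. Whole reads could be recovered from the steps between TPM values, and their sums ran from 17348000 to 23453000 per library. Small noncoding RNAs took a large part of every library: 5 of them (*RN7SL1*, *RN7SL2*, *RN7SK*, *RMRP* and *RPPH1*) held from 39.6 to 60.1% of all TPM. In THP1 this share was 46.3 to 55.8% with DMSO, 48.1 to 60.03% at 8 h and 51.4 to 60.1% at 24 h, and in MV4-11 it was 47.3 to 49.7%, 39.6 to 51.9% and 42.9 to 47.9%. Since TPM add up to a fixed sum, the other genes together hold less of it where this share is high. Changes are therefore also given for many genes after scaling the libraries by the median of their ratios, which removes a shift shared by most genes. All 8 myeloid markers (*PTPRC*, *CD33*, *ANPEP*, *MPO*, *SPI1*, *CEBPA*, *LYZ* and *CSF3R*) averaged at least 1 TPM in all 6 groups. Of the marker lists of other cells, 2 of 4 red cell genes in MV4-11 and 1 in THP1, 2 and 1 of 4 megakaryocyte genes, and 1 of 4 epithelial or stromal genes averaged at least 1 TPM with DMSO, as did 1 of 5 lymphoid genes in MV4-11 and none in THP1. *PECAM1* was the highest of them, at 16.8 TPM in MV4-11 and 67.2 TPM in THP1, whereas *HBB*, *PF4*, *MS4A1*, *CD2*, *EPCAM* and *KRT19* averaged at most 0.0574 TPM in any group. The summed levels of these lists with DMSO ran from 9.34 to 11.7 TPM (red cell), 7.60 to 9.32 TPM (megakaryocyte), 1.73 to 1.75 TPM (lymphoid) and 16.6 to 17.1 TPM (epithelial or stromal) in MV4-11, and from 4.71 to 5.78, 2.00 to 2.97, 0.881 to 1.24 and 63.6 to 69.7 TPM in THP1. In bulk RNA, fewer cells that express a gene and less of its RNA per cell cannot be told apart.

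The first question was how the program differed between the lines without inhibitor. *MYB*, *CDK6*, *MYC* and *FLT3* were the most abundant of the 10 transcripts in MV4-11, with ranges over the 3 DMSO libraries that overlapped from each to the next: 219 ± 19.1 TPM for *MYB*, 205 ± 26.96 for *CDK6*, 201 ± 7.91 for *MYC* and 187 ± 16.4 for *FLT3* (mean ± SD, n = 3 throughout). They were followed, without overlap, by *MEF2C* at 44.2 ± 5.34 TPM and *PBX3* at 30.4 ± 3.66 TPM. *HOXA9* at 24.9 ± 1.48 TPM and *MEIS1* at 23.6 ± 2.81 TPM overlapped each other, *HOXA10* was below both at 13.7 ± 1.08 TPM, and *HOXA7* was at 0. In THP1 the order began with *MYB* at 196 ± 29.8 TPM and *CDK6* at 153 ± 13.7 TPM, whose ranges did not overlap. *MYC* (77.4 ± 6.53 TPM) and *PBX3* (71.7 ± 7.14 TPM) overlapped, as did *MEF2C* (34.8 ± 4.64 TPM), *FLT3* (30.8 ± 6.80 TPM), *HOXA9* (26.4 ± 6.59 TPM) and *HOXA10* (21.0 ± 2.78 TPM), each with the next. *HOXA7* followed at 1.39 ± 0.135 TPM and *MEIS1* was last at 0.0130 ± 0.0143 TPM.

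**Figure D1:**
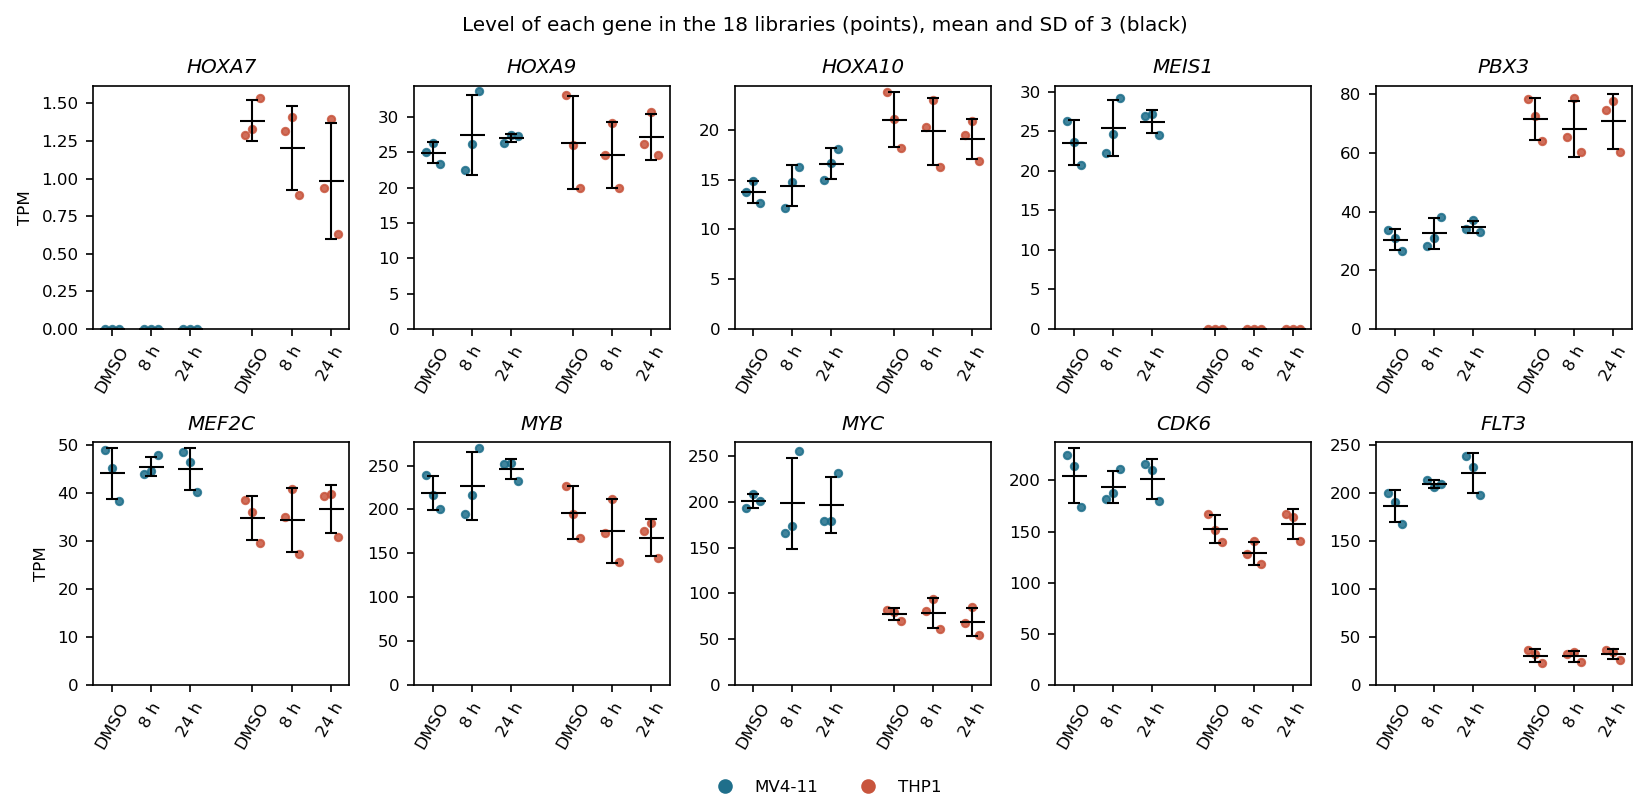
TPM (vertical axis, from 0, a separate scale in each panel) of the 10 genes in each library, with 3 points per group and the mean and SD in black. *MEIS1* sits at the floor in the 9 THP1 libraries and *HOXA7* in the 9 MV4-11 libraries, *FLT3* and *MYC* are higher in MV4-11, and *PBX3* is higher in THP1. Within each line the ranges with IACS overlap that with DMSO for most genes, and *MYC* in MV4-11 is spread more widely with IACS than with DMSO.

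With DMSO, 5 of the 10 genes passed the threshold between the lines (limma on log2(TPM + 1), Benjamini-Hochberg adjusted p under 0.05 over 14915 genes and a fold change beyond 1.5 on that scale): *MEIS1*, *FLT3* and *MYC* were lower in THP1, and *HOXA7* and *PBX3* were higher. Of all genes tested, 38.3% passed (20.9% higher and 17.3% lower in THP1). *HOXA7* and *MEIS1* entered the test only through the line where they were on, so they had to differ. Groups without overlap were seen for 7 of the 10, beside 61.7% of all genes. Among the 8 genes that averaged at least 1 TPM in each line, 3 passed, beside 31.5% of the 12555 such genes, so that the share of the program that differed was near that of genes in general. The counts for lists of related genes below are to be read beside these same shares.

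The HOXA proteins come first. *HOXA9*, the homeobox factor most closely tied to *KMT2A*-r leukemia, had 25.1, 26.3 and 23.3 TPM in the MV4-11 DMSO libraries and 33.1, 26.0 and 19.9 TPM in those of THP1. The groups overlapped, with a log2 difference (THP1 minus MV4-11) of 0.05 ± 0.18 (SE, 95% interval -0.32 to 0.42, limma adjusted p = 0.828). *HOXA10*, its neighbour in the cluster, had 13.7, 14.8 and 12.7 TPM in MV4-11 and 23.8, 21.1 and 18.2 TPM in THP1. Its groups did not overlap, and its log2 difference of 0.57 ± 0.15 (limma adjusted p = 0.0030) stopped just short of the fold threshold. It passed after scaling (0.59, where 38.6% of genes passed), with a pseudocount of 0.1 (0.60), without the 5 noncoding RNAs (0.66) and in limma-voom (0.61). *HOXA7* was listed at 0 in all 9 MV4-11 libraries, DMSO and IACS alike, and not one read was recovered. In THP1 it had 1.29, 1.33 and 1.54 TPM with DMSO, and 21 to 42 reads in each of the 9 libraries. Against a floor of 3 reads over the MV4-11 DMSO group, *HOXA7* was at least 38.5-fold higher in THP1. Against the upper bound of the 95% counting interval of the 0 reads in that group, it was at least 31.3-fold higher. The counting error of the 100 reads in THP1 DMSO is not included. *HOXA-AS3*, an antisense transcript that shares 1507 exon bases with *HOXA7*, had 1 read over the 3 THP1 DMSO libraries. Whether the authors' counting used strand is not stated, so reads of *HOXA9* and *HOXA10* could not be told apart from those of *HOXA10-AS*, with which they share 422 and 608 exon bases. A further gene of the same strand, not analysed here, shares 397 and 368 exon bases with them.

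The rest of the HOXA cluster set the lines apart along the chromosome. Of 14 other transcripts of the cluster, 8 were tested, and 6 of them entered the test through THP1 alone, where they are high, so that they had to differ. The 2 that reached 1 TPM in both lines did not pass, and the levels below are a description. In MV4-11 with DMSO the row of genes from *HOXA2* to *HOXA6* gave at most 0.0297 TPM each, and the genes beyond *HOXA10* fell off again, with 0.169 ± 0.152 TPM for *HOXA11* and 0.0114 TPM (2 reads in 3 libraries) for *HOXA13*. THP1 held *HOXA11* at 16.7 ± 2.85 TPM and *HOXA13*, the last gene of the cluster, at 25.1 ± 4.53 TPM, on a level with *HOXA9*. *HOTTIP*, a long noncoding RNA at that end of the cluster, had 8.20 ± 0.399 TPM in THP1 and was listed at 0 in MV4-11. *HOXA5* had 3.39 ± 0.417 TPM in THP1 and 2 reads in all in MV4-11, and *HOXA6* had 1.93 ± 0.214 TPM in THP1 and none. *HOTAIRM1*, a noncoding RNA of the cluster, did not pass, with 3.70 TPM in MV4-11 and 3.54 TPM in THP1 (log2 difference -0.06 ± 0.20, limma adjusted p = 0.829). Of the coding genes from *HOXA2* to *HOXA13*, *HOXA9* and *HOXA10* alone averaged 1 TPM or more in MV4-11 with DMSO, whereas in THP1 all those from *HOXA5* to *HOXA13* did.

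**Figure D2:**
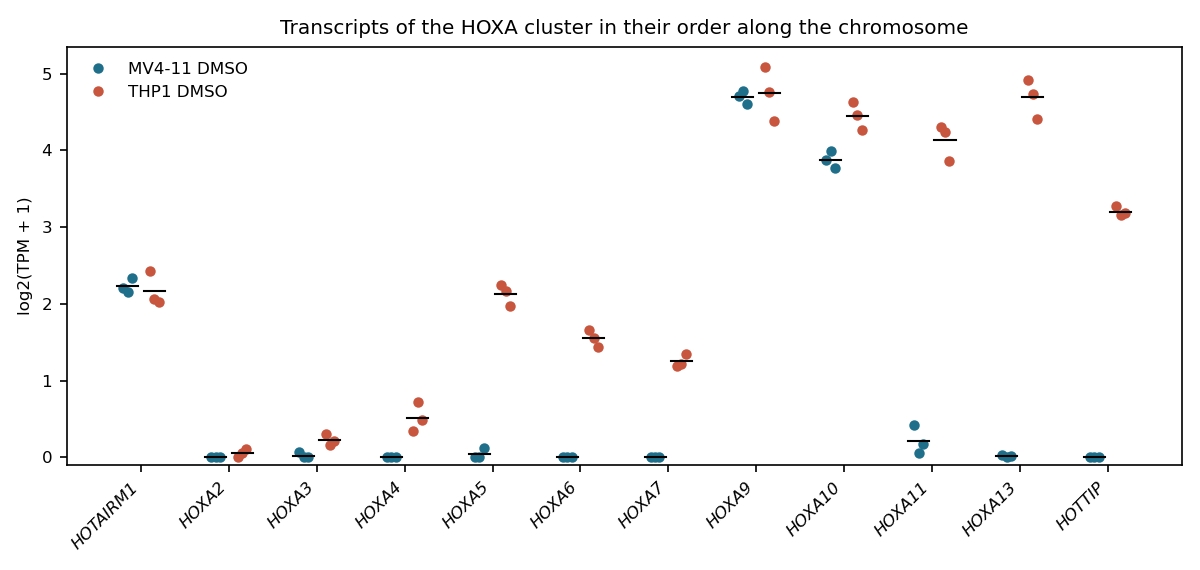
Log2(TPM + 1) of genes of the HOXA cluster, 2 noncoding RNAs among them, in the 3 DMSO libraries of each line (points) with their mean (black line), in their order along chromosome 7. *HOXA9* is at a like level in both lines, *HOXA10* is somewhat higher in THP1, and *HOXA5*, *HOXA6*, *HOXA7*, *HOXA13* and *HOTTIP* are at or near 0 in MV4-11 and clearly above it in THP1.

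The HOX cofactors went opposite ways. *MEIS1*, the homeobox partner that speeds *HOXA9*-driven leukemia, had 26.3, 23.7 and 20.7 TPM in the MV4-11 DMSO libraries. In THP1 it had 0.0105, 0.0284 and 0 TPM, which came from 1, 3 and 0 reads. Over all 9 libraries of a line, 26465 reads of *MEIS1* were recovered in MV4-11 and 9 in THP1. With DMSO its mean level was 1821-fold higher in MV4-11, with a 95% counting interval of 740-fold to 6953-fold that covers the reads only. *PBX3*, which binds both HOX and MEIS proteins, had 33.8, 30.8 and 26.6 TPM in MV4-11 and 78.4, 72.5 and 64.2 TPM in THP1. It was 2.36-fold higher in THP1 (log2 difference 1.21 ± 0.14, limma adjusted p = 1.09e-06), and no library of one line reached the range of the other. Of 7 other PBX, MEIS and PKNOX genes, 3 reached 1 TPM in both lines and none of these passed. *MEIS2*, a paralog of *MEIS1* that entered the test through THP1 alone, was at 4.10 TPM in THP1 and 0.893 TPM in MV4-11.

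The transcription factors *MEF2C*, *MYB* and *MYC* split as well. *MEF2C* had 49.0, 45.2 and 38.4 TPM in MV4-11 and 38.7, 36.1 and 29.7 TPM in THP1, and the groups overlapped (log2 difference -0.34 ± 0.15, limma adjusted p = 0.073). *MYB*, which sustains self-renewal, had 239, 217 and 201 TPM in MV4-11 and 227, 195 and 168 TPM in THP1, and the groups overlapped (-0.16 ± 0.16, 95% interval -0.50 to 0.17, limma adjusted p = 0.420). For *MEF2C* and *MYB* the limma adjusted p was 0.0019 and 0.040 after scaling, and 0.0010 and 0.026 in limma-voom. Without the 5 noncoding RNAs it was 0.029 and 0.347 (limma). The differences of both genes stayed below the fold threshold in these settings. *MYC*, the growth regulator, had 193, 209 and 201 TPM in MV4-11 and 82.2, 79.9 and 69.9 TPM in THP1. Every THP1 library was below every MV4-11 library, and *MYC* was 2.59-fold higher in MV4-11 (log2 difference -1.37 ± 0.19, limma adjusted p = 6.85e-06). Of 8 tested genes of the *MYC* network, *MXD1*, *MNT* and *MXI1*, which oppose *MYC*, passed as lower in THP1 at 2.58, 4.57 and 18.4 TPM. *MYCL*, a *MYC* paralog, passed as higher, at 15.5 TPM in THP1 and 2.37 TPM in MV4-11. Of 22 *MYC* targets, 4 passed as lower in THP1 (*FBL*, *NOP56*, *PPAN* and *POLR1B*) and 1, *TERT*, as higher, with a median log2 difference of -0.38. All 22 reached 1 TPM in both lines, where 31.5% of genes passed. Of all genes tested, 17.3% passed as lower. *FBL*, a nucleolar methyltransferase, went from 197 TPM in MV4-11 to 62.0 TPM in THP1.

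Among the relatives of *MYB* and *MEF2C*, *MYBL1* passed as higher in THP1 (5.92 against 2.15 TPM) and *KIT*, a receptor gene of progenitors, as lower (2.08 against 5.62 TPM), of 6 tested. Of 9 tested MEF2 genes and regulators, *HDAC9* (21.1 against 2.62 TPM) and *MEF2D* (185 against 85.7 TPM) passed as higher in THP1 and *HDAC7*, a repressor of MEF2 proteins, as lower (3.87 against 7.20 TPM).

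The cell cycle kinase and the receptor closed the list. *CDK6* had 225, 214 and 174 TPM in MV4-11 and 167, 152 and 139 TPM in THP1. The groups did not overlap, but the log2 difference of -0.42 ± 0.13 (95% interval -0.68 to -0.15, limma adjusted p = 0.011) was short of the fold threshold. Of the partners and inhibitors of *CDK6*, 8 reached 1 TPM in both lines, of which 3 passed as lower in THP1 and 1 as higher, with a median of -0.24. A further 4 entered through 1 line alone, *CCND2* and *CDKN2A* among them. *CCND2*, a cyclin that activates *CDK6*, was at 19.7 TPM in MV4-11 and 0.317 TPM in THP1. *CDKN2A*, which encodes an inhibitor of *CDK6*, was at 25.6 TPM in MV4-11 and listed at 0 in THP1. *CDKN1A*, an inhibitor induced by p53, was at 48.7 and 7.36 TPM, whereas *CDKN2C*, another *CDK6* inhibitor, was at 17.9 and 137 TPM.

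*FLT3* had 200.5, 191 and 169 TPM in MV4-11 and 36.4, 32.7 and 23.2 TPM in THP1. It was 6.07-fold higher in MV4-11 (log2 difference -2.58 ± 0.17, limma adjusted p = 3.51e-10), and every MV4-11 library was above every THP1 library. Of 10 genes of *FLT3* signalling and STAT5 output that reached 1 TPM in both lines, 6 passed as lower in THP1 and 1, *SPRY2*, as higher, with a median of -1.09. *PIM1*, a kinase gene that STAT5 induces, was at 43.3 TPM in MV4-11 and 6.48 TPM in THP1. *SOCS2*, a feedback inhibitor, was at 9.12 and 1.22 TPM, and *STAT5A* was at 21.4 and 6.26 TPM. *FLT3LG*, the ligand, was at 1.43 and 1.18 TPM (log2 difference -0.16 ± 0.15, limma adjusted p = 0.414).

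**Figure D3:**
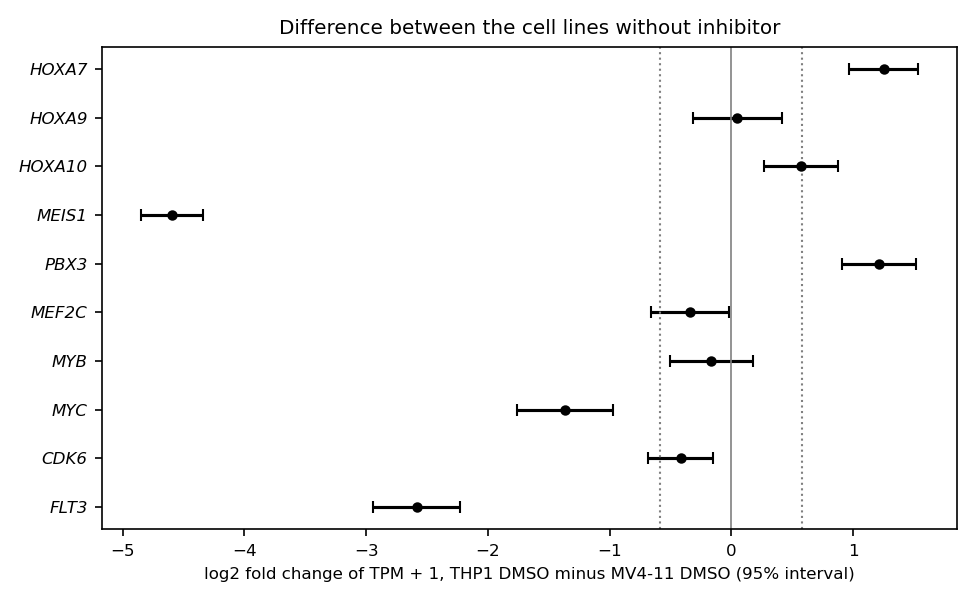
Log2 fold change of TPM + 1 (horizontal axis, THP1 DMSO minus MV4-11 DMSO) of the 10 genes with 95% intervals from limma over 18 libraries; dotted lines mark a fold change of 1.5 in each direction. *MEIS1*, *FLT3* and *MYC* lie to the left of the threshold and *HOXA7* and *PBX3* to the right. *HOXA10*, *MEF2C* and *CDK6* have intervals that reach across the threshold and leave out 0, and *HOXA9* and *MYB* have intervals that include 0.

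The machinery and the other targets of the fusion were compared as well. Of 21 genes for the fusion complex and its elongation cofactors that reached 1 TPM in both lines, 2 passed as higher in THP1 and 3 as lower. *KMT2A* was lower in THP1, at 12.5 TPM beside 21.7 TPM (log2 difference -0.74 ± 0.18, limma adjusted p = 0.00175). *MLLT3*, which entered the test through THP1 alone, was at 2.67 TPM beside 0.240 TPM, and *AFF1* did not pass, at 58.8 TPM beside 54.6 TPM (limma adjusted p = 0.601). A TPM of *KMT2A*, *AFF1* or *MLLT3* adds reads from the normal gene and from the fusion, which cannot be told apart here. Of 16 tested other targets of *KMT2A* fusions, *JMJD1C*, *SENP6* and *UBASH3B* passed as higher in THP1 and *LAMP5* and *NRIP1* as lower. *LAMP5* was the highest of these, at 295 TPM in MV4-11 and 98.5 TPM in THP1. Of 13 tested genes of monocyte differentiation, 5 passed as higher in THP1 and *LYZ*, lysozyme, as lower. *ITGAM*, an integrin of mature myeloid cells, was at 25.1 TPM in THP1 and 0.838 TPM in MV4-11.

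The second question was whether inhibition of complex I changed the program. No gene of the 10 passed the threshold in either line at either time, and none had an unadjusted p under 0.05 in limma on deposited TPM without the block (9 genes tested in each line). After scaling, *HOXA9*, *PBX3*, *MEF2C*, *CDK6* and *FLT3* in THP1 at 24 h had an unadjusted p under 0.05 in limma, and none of them passed. Their changes were 0.22, 0.13, 0.23, 0.20 and 0.24. The share of all genes under that p was not counted, so nothing is drawn from their number. A count of 0 calls also came from limma-voom on recovered reads. There 0.0666 and 0.962% of all genes passed in MV4-11 (8 and 24 h) and 0.036 and 1.25% in THP1. The background in limma was also low: of 13542 genes in MV4-11, 0.0148% passed after 8 h of IACS and 0.0886% after 24 h, and of 13928 genes in THP1, 0.0144% passed after 8 h and 0.0431% after 24 h. The intervals show what size of change remained possible. In MV4-11 the 95% intervals of the 9 genes ran from -0.41 to 0.43 at 8 h and from -0.41 to 0.53 at 24 h on the log2 scale, inside the fold threshold in both directions. In THP1 they ran from -0.55 to 0.44 at 8 h and from -0.68 to 0.53 at 24 h. Those of *HOXA7*, *MYB* and *MYC* at 24 h reached past that threshold, so a fall of that size was not excluded there.

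In MV4-11 at 8 h the log2 fold changes ran from -0.07 for *CDK6* to 0.17 for *FLT3*, with a median of 0.05 beside 0.06 over all genes. At 24 h they ran from -0.04 for *MYC* to 0.25 for *HOXA10*, with a median of 0.15 beside 0.08. *FLT3* had 214, 206 and 209.7 TPM at 8 h and 238, 228 and 198 TPM at 24 h. Its 8 h group did not overlap DMSO and its 24 h group did, since 1 library of 198 TPM lay below the highest DMSO library. The change at 24 h was 0.25 ± 0.12 (limma adjusted p = 0.443), or 0.18 after scaling. *HOXA10* had 12.2, 14.8 and 16.2 TPM at 8 h and 14.99, 16.6 and 18.1 TPM at 24 h, and at 24 h all 3 libraries were above the highest DMSO library (0.25 ± 0.13, limma adjusted p = 0.469), or 0.19 after scaling. *HOXA9* had 22.5, 26.2 and 33.7 TPM at 8 h and 26.3, 27.4 and 27.3 TPM at 24 h, with the lowest of the 24 h libraries just above the highest DMSO library (0.11 ± 0.14, limma adjusted p = 0.789), or 0.05 after scaling. Groups without overlap were seen for 1 of 9 genes at 8 h beside 8.79% of all genes, and for 2 of 9 at 24 h beside 24.7%.

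*MYC* in MV4-11 spread over a wider range with IACS than with DMSO. It had 166, 173 and 255 TPM at 8 h and 179, 179 and 231 TPM at 24 h, and in each group 1 library lay above and 2 below the DMSO range of 193 to 209 TPM. The log2 fold change was -0.05 ± 0.17 at 8 h and -0.04 ± 0.17 at 24 h (limma adjusted p = 0.994 and 0.951). *MEIS1* had 22.3, 24.7 and 29.3 TPM at 8 h and 26.97, 27.2 and 24.5 TPM at 24 h, in ranges that overlapped DMSO (0.10 ± 0.13 and 0.15 ± 0.13, limma adjusted p = 0.982 and 0.688), or 0.05 and 0.09 after scaling. *CDK6* had 182, 187 and 212 TPM at 8 h and 216, 209.7 and 179 TPM at 24 h. *PBX3*, *MEF2C* and *MYB* had log2 fold changes from 0.03 to 0.19 at either time, and those of *MEF2C* at both times and of *MYB* at 8 h were below 0 after scaling.

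In THP1 the median log2 fold change of all genes was itself below 0, at -0.12 at both times, and the share of the 5 noncoding RNAs reached higher than with DMSO in overlapping ranges. The part of this share in the changes below was not tested. Relative to that shift the program was at 0.04 at 8 h and 0.09 at 24 h (median of 9 genes, deposited TPM), and at 0.05 and 0.13 after scaling. *CDK6* had the largest change at 8 h, with 128, 140.4 and 118 TPM beside 167, 152 and 139 TPM with DMSO. The ranges overlapped by 1 library, and the change was -0.24 ± 0.13 (limma adjusted p = 0.941), or -0.10 after scaling. At 24 h *CDK6* had 167, 164 and 140.5 TPM, with the lowest library just above the highest of 8 h (0.29 ± 0.13 against 8 h, limma adjusted p = 0.981). The replicate numbers paired these libraries, and the adjusted p was 0.0874 with the block and 0.0142 with the block and the scaling (0.30), at a change below the fold threshold (limma).

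*MYC* in THP1 had 80.9, 94.4 and 61.3 TPM at 8 h and 67.4, 85.3 and 54.7 TPM at 24 h. Both groups overlapped DMSO, and the changes were 0.01 ± 0.19 and -0.18 ± 0.19 (limma adjusted p = 0.990 and 0.787), the second being -0.02 after scaling. *MYB* had 173, 212 and 140.0 TPM at 8 h and 175, 184 and 145 TPM at 24 h (-0.17 ± 0.17 and -0.22 ± 0.17, limma adjusted p = 0.941 and 0.705), or -0.03 and -0.06 after scaling. *HOXA7* had 1.32, 1.41 and 0.888 TPM at 8 h and 0.937, 1.39 and 0.628 TPM at 24 h. Its change at 24 h was the lowest of the program (-0.28 ± 0.18, 95% interval -0.68 to 0.12, limma adjusted p = 0.656, or -0.22 after scaling) and rested on 76 reads over 3 libraries, beside 100 with DMSO. *HOXA9* had 24.7, 29.2 and 19.9 TPM at 8 h and 26.2, 30.7 and 24.6 TPM at 24 h. *FLT3* had 32.3, 35.0 and 24.0 TPM and then 36.5, 35.0 and 26.0 TPM. *HOXA9* and *FLT3* changed by 0.06 ± 0.20 and 0.09 ± 0.20 at 24 h (limma adjusted p = 0.934 and 0.916), or by 0.22 and 0.24 after scaling. *HOXA9*, *HOXA10*, *PBX3*, *MEF2C* and *FLT3* at 8 h, and *HOXA10* and *PBX3* at 24 h, went from below 0 to above 0 with the scaling, so no direction can be given for them. Groups without overlap were seen for none of the 9 genes in THP1, beside 4.76% of all genes at 8 h and 13.5% at 24 h, and between 24 h and 8 h for *CDK6* alone, beside 7.7%. *MEIS1* stayed near 0: 2 reads were recovered over the 3 libraries at 8 h and 3 at 24 h.

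**Figure D4:**
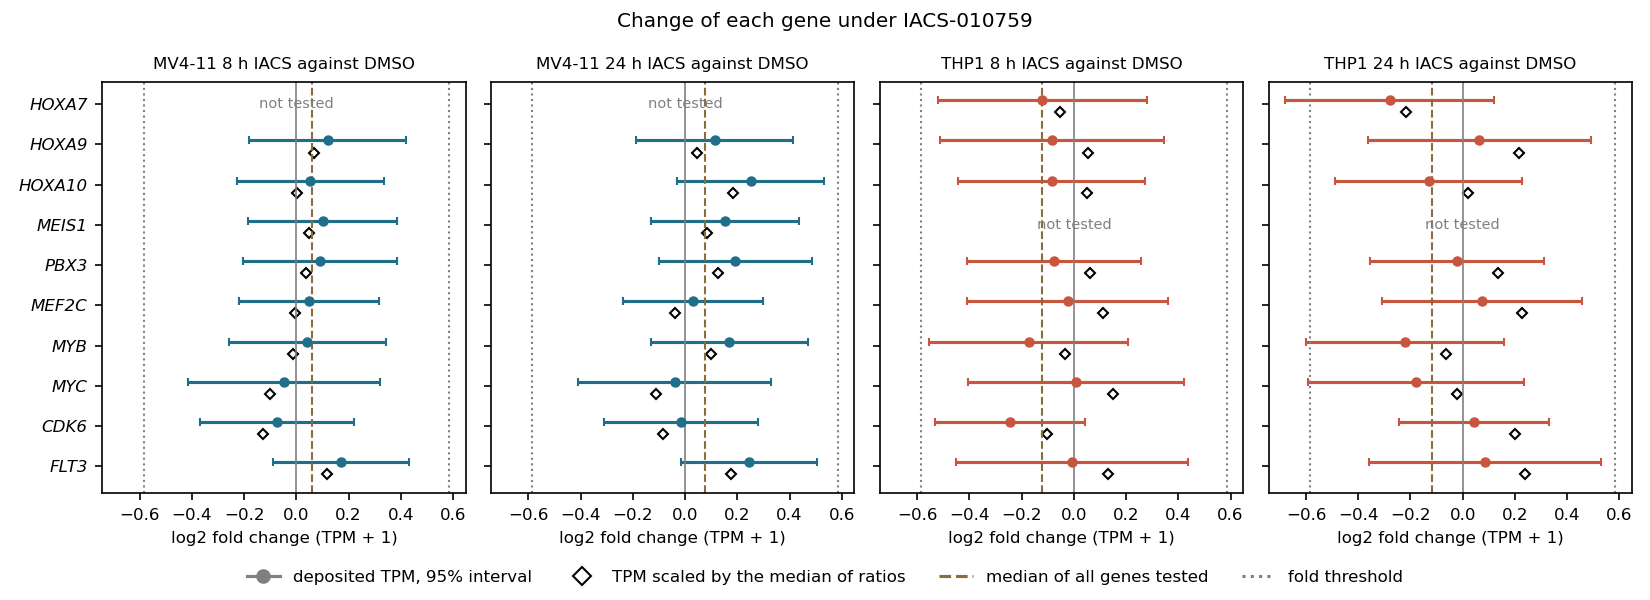
Log2 fold change of TPM + 1 (horizontal axis) against DMSO for each gene, cell line and time: filled points are deposited TPM with 95% limma intervals, open diamonds are scaled TPM, the dashed line is the median of all genes tested and dotted lines are the fold threshold. Every interval includes 0, and in THP1 the diamonds lie to the right of the points, and the median of all genes is below 0 there.

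The replicate numbers paired the THP1 libraries of DMSO and 24 h, and with the number as a block the calls over all genes rose from 6 to 296 (2.13%). No gene of the program was among them, and the smallest limma adjusted p of the 9 was 0.159, for *MYB*. With the block and the scaling together, *FLT3*, *MEF2C* and *CDK6* in THP1 at 24 h had limma adjusted p of 0.0236, 0.0259 and 0.0345, at log2 changes of 0.24, 0.23 and 0.20 that were far below the fold threshold. No gene of the program passed between 24 h and 8 h of IACS in either line, where 0% of genes passed in MV4-11 and 0.00718% in THP1, or 0.00738% and 0.818% with the block.

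The responses of the lines were then set against each other. Of the 8 genes measured in both lines, none passed in the interaction of line and treatment at 8 h or 24 h, beside 0.00796% of 12555 genes at each time, and none had an unadjusted p under 0.05 in limma on deposited TPM without the block. The differences (THP1 minus MV4-11) at 24 h ran from -0.39 for *MYB* (95% interval -0.87 to 0.09) to 0.06 for *CDK6*, with *HOXA10* at -0.38 (-0.82 to 0.05, limma adjusted p = 0.697). The median of all genes was -0.20 in the same comparison. After scaling the differences ran from -0.17 for *HOXA10* to 0.29 for *CDK6*, with *MYB* at -0.16, and 2 of the 8 were below 0 in place of 6, so no direction can be given for most of them. With the block and the scaling together, *MEF2C* (0.27) and *CDK6* had limma adjusted p of 0.0415 and 0.0418, below the fold threshold.

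Part of the spread among the genes was shared by whole libraries. The median coefficient of variation of the genes over 3 libraries was 13.2 to 18.9% in the THP1 groups and 14.3% in MV4-11 at 8 h, and it was 5.58 to 6.48% there after scaling. In MV4-11 with DMSO and at 24 h it was 8.80 and 9.33%, and 6.82 and 8.29% after scaling. In THP1 the libraries of replicate 3 were the lowest of their group for 8 of the 9 genes with DMSO. Between pairs of the genes over the 9 libraries of a line, the median Pearson r was 0.65 in MV4-11 and 0.78 in THP1 with deposited TPM and 0.21 and 0.13 after scaling. These points share libraries and the share of the noncoding RNAs, so the values only describe them. The genes whose scaled levels ran most like *MYC* in both lines were *THAP7*, *JMJD8* and *COPS7A*, with a lower r of 0.90, 0.87 and 0.85 over 9 libraries a line. For *HOXA9* they were *AC093627.5*, *AL691432.4* and *FAM201A*, each with a lower r of 0.69, out of 12554 genes.

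The outputs of the program were checked next. Most *MYC* targets had values below 0 with IACS. *MYC* itself was at -0.05 and -0.04 in MV4-11 (8 and 24 h) and at 0.01 and -0.18 in THP1. It did not pass. In MV4-11, 21 of 22 targets had values below 0 at each time, and in THP1 20 had such values after 8 h and 22 after 24 h. The share of all genes below 0 was not counted, and in THP1 the median of all genes was itself below 0. Their median log2 fold change was -0.17 and -0.22 in MV4-11 and -0.20 and -0.49 in THP1, beside 0.06, 0.08, -0.12 and -0.12 over all genes. After scaling it was -0.21, -0.29, -0.06 and -0.34, and 22, 21, 15 and 21 of the targets were below 0. None passed in limma without the block. In THP1 at 24 h, 7 had an unadjusted p under 0.05 in limma and a fall beyond the fold threshold, beside 242 of 13928 genes tested. With the block, which rests on a pairing read from these same data, 7 of the 22 fell in THP1 at 24 h, beside 1.73% of all genes that were lower: *SRM*, *NCL*, *RRS1*, *LDHA*, *NME1*, *ODC1* and *NOP16*. *SRM*, spermidine synthase, went from 76.9 to 43.8 TPM (-0.83 ± 0.20, limma adjusted p = 0.312 without and 0.00192 with the block). *NCL*, nucleolin of the nucleolus, went from 232 to 144 TPM (-0.73 ± 0.26, limma adjusted p = 0.511 and 0.00468). After scaling, *SRM* passed in THP1 and *LDHA*, lactate dehydrogenase, in MV4-11 at 24 h, where *LDHA* went from 235 to 165 TPM (0.314% and 0.164% of all genes were called lower). With limma-voom, *SRM* and *NCL* passed in THP1 and *LDHA* in MV4-11, beside 0.547% and 0.244%.

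**Figure D5:**
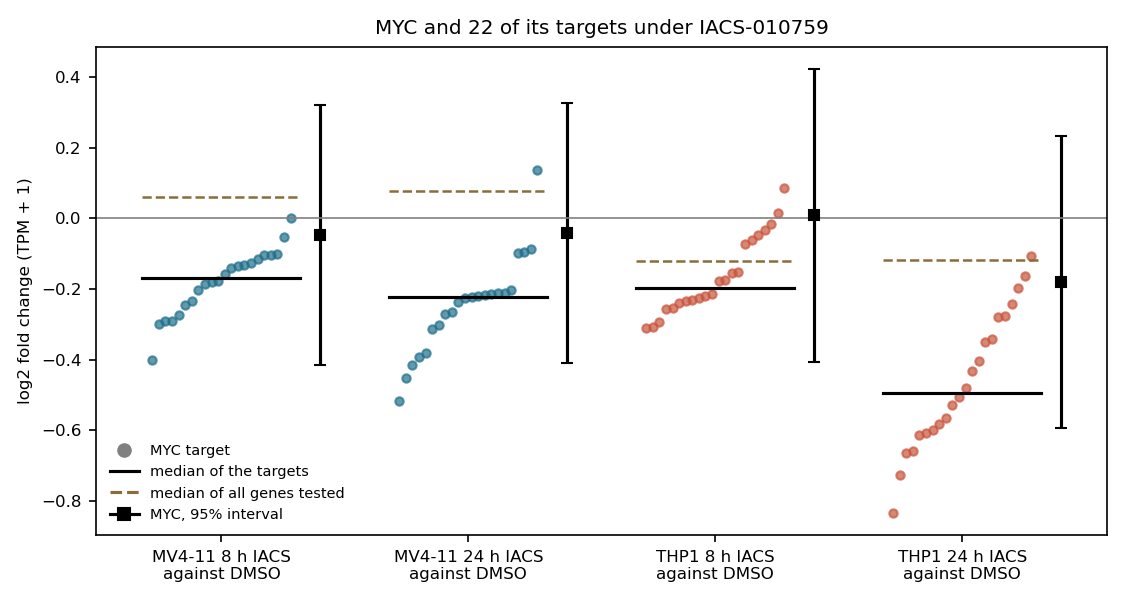
Log2 fold change of TPM + 1 (vertical axis) against DMSO for *MYC* (black square, 95% limma interval) and 22 *MYC* targets (points in order of size, black line at their median) in the 4 comparisons, with a dashed line at the median of all genes tested. The targets lie mostly below 0 and lowest in THP1 at 24 h, at a median of -0.49. The interval of *MYC* includes 0 in all 4 comparisons, with the estimate below 0 in all but THP1 at 8 h.

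Other lists around the program gave few calls. *MYBL2*, a *MYB* relative of dividing cells, had 189 TPM with DMSO and 103 TPM at 24 h in THP1 (-0.91 ± 0.23, limma adjusted p = 0.367 without and 0.00176 with the block), and it also passed after scaling and in voom. *PAF1*, of the elongation complex that *KMT2A* fusions use, passed as lower there with the block only (30.8 to 20.1 TPM, adjusted p = 0.00526, limma). *SOCS2*, the STAT5 output, was at 1.22 TPM with DMSO and 2.23 TPM at 24 h in THP1 and passed as higher after scaling and in voom (limma adjusted p = 0.0246 and 0.0105, beside 0.428% and 0.698% of all genes called higher). The 14 other HOXA transcripts, the PBX and MEIS relatives, the other fusion targets, the *MYC* network, the MEF2 relatives and the *CDK6* partners gave no call in either line at either time in limma. Their median changes in limma ran from -0.27 (the PBX and MEIS relatives in THP1 at 8 h) to 0.40 (2 tested HOXA transcripts in MV4-11 at 24 h). Of the monocyte genes, *S100A9*, a calcium-binding protein of myeloid cells, was at 108 TPM with DMSO and 68.5 TPM at 24 h in MV4-11 (-0.66 ± 0.23, limma adjusted p = 0.283) and no monocyte gene passed without the block.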

How the data were processed

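The TPM were deposited by the authors as 1 table of 18 libraries. Per the labels and the study's methods, total RNA was made into TruSeq v2 libraries, sequenced as 2 paired reads on a NovaSeq, mapped in CLC Genomics Workbench (v20) on GRCh38. Its gene annotation release and strand setting are not given in the sources used here.

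Values were tested as log2(TPM + 1) with limma 3.58.1 (R 4.3.3, lmFit and eBayes with a variance trend, two-sided), with Benjamini-Hochberg adjustment over every gene whose mean reached 1 TPM. A fold change on this scale understates that of low genes. Whole reads were recovered from TPM steps (tolerance 0.02 reads) for 99.8% of 14915 genes and all 10 members, and limma-voom on them was an alternative added after the data were seen, beside those in the closing section. Counting intervals and floors cover counting error only. The tests were tried on simulated data with known changes.

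With deposited TPM, same-numbered libraries deviated together (every r over 0.1) for THP1 DMSO with 24 h (0.146 to 0.324), THP1 8 h with 24 h (0.183 to 0.357) and MV4-11 8 h with 24 h (0.110 to 0.441), a pairing read from the data, and not for the other pairs of groups within a line. After scaling, the lowest r of MV4-11 8 h with 24 h was 0.0901, under that limit. With deposited TPM, MV4-11 8 h replicate 2 and 24 h replicate 1 had an r of 0.387, above the 0.110 of the replicate 1 pair. The labels only number the 3 libraries of a group, and the study's methods call them independent replicates.

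The genes of the program and the lists were chosen with earlier results of these data known. All 10 were named. Of each list, the text names the genes called, at most the 4 with the largest change, and others named were chosen after their values were seen. *MEIS1* has no genes named as most like it, since it was not tested in THP1. Some genes of the lists are not reported here.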

Additional observations from a re-analysis of the deposited data

How the results depend on the processing

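There were 12 other settings and 18 fits that each left out 1 library. They gave 209 pairs of a setting and a comparison, 108 of them without 1 library. The number of members called was 0 in each IACS comparison, 24 h against 8 h and interaction. Between the lines it was 4 with a mean of at least 10 TPM, where *HOXA7* was not tested, 6 where *HOXA10* passed, and otherwise 5. After scaling by the median of ratios, with or without the block, the log2 fold change took the other sign for *MEF2C* (-0.0046), *MYB* (-0.012) in MV4-11 at 8 h, and for *MEF2C* (-0.038) in MV4-11 at 24 h, and for *HOXA9* (0.053), *HOXA10* (0.050), *PBX3* (0.063), *MEF2C* (0.11), *FLT3* (0.13) in THP1 at 8 h, and for *HOXA10* (0.020), *PBX3* (0.13) in THP1 at 24 h. Without the 5 noncoding RNAs it did so for *MEF2C* (-0.023) in MV4-11 at 24 h, and for *HOXA9* (0.027), *HOXA10* (0.024), *PBX3* (0.036), *MEF2C* (0.087), *FLT3* (0.10) in THP1 at 8 h, and for *HOXA10* (0.0083), *PBX3* (0.12) in THP1 at 24 h. In limma-voom on recovered reads it did so for *HOXA10* (-0.0064), *MEF2C* (-0.012), *MYB* (-0.019) in MV4-11 at 8 h, and for *MEF2C* (-0.059) in MV4-11 at 24 h, and for *HOXA9* (0.050), *HOXA10* (0.048), *PBX3* (0.059), *MEF2C* (0.11), *FLT3* (0.13) in THP1 at 8 h, and for *HOXA10* (0.00013), *PBX3* (0.11) in THP1 at 24 h. Leaving out 1 library in turn moved the sign for 23 of 46 log2 values, none of them called. The ranges were, for MV4-11 at 24 h *CDK6* (-0.13 to 0.066), *MEF2C* (-0.065 to 0.11), *MYC* (-0.16 to 0.022); for MV4-11 at 8 h *CDK6* (-0.18 to 0.00061), *HOXA10* (-0.032 to 0.16), *HOXA9* (-0.032 to 0.25), *MEF2C* (-0.046 to 0.12), *MEIS1* (-0.0025 to 0.19), *MYB* (-0.088 to 0.15), *MYC* (-0.24 to 0.066), *PBX3* (-0.029 to 0.18); for THP1 at 24 h *CDK6* (-0.019 to 0.12), *FLT3* (-0.098 to 0.23), *HOXA9* (-0.11 to 0.24), *MEF2C* (-0.035 to 0.19), *PBX3* (-0.098 to 0.089); for THP1 at 8 h *FLT3* (-0.19 to 0.15), *HOXA10* (-0.19 to 0.043), *HOXA9* (-0.26 to 0.090), *MEF2C* (-0.15 to 0.13), *MYC* (-0.13 to 0.18), *PBX3* (-0.18 to 0.0066); for the line comparison *HOXA9* (-0.12 to 0.23). The cause was not tested.

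With the replicate block, no member was called in any comparison within a line. With deposited TPM the pairing held for THP1 DMSO with 24 h and for 8 h with 24 h in both lines. After scaling it did not hold for MV4-11 8 h with 24 h (lowest r 0.0901). For these pairs of groups the block moved the calls over all genes from 6 to 296 in THP1 at 24 h, from 1 to 114 in THP1 between 24 h and 8 h, and from 0 to 1 in MV4-11 between 24 h and 8 h. No block was possible for the comparison of the lines. Over the settings with an adjusted p, the calls ran from 0 to 14 in MV4-11 at 8 h (2 in the text) and from 0 to 137 at 24 h (12). In THP1 they ran from 1 to 9 at 8 h (2), from 1 to 296 at 24 h (6) and from 0 to 141 between 24 h and 8 h (1). They ran from 2965 to 6848 between the lines (5707) and from 1 to 122 for the interaction at 24 h (1). With the unadjusted p in limma, 91 and 269 genes passed in MV4-11 (8 and 24 h) and 106 and 307 in THP1. *HOXA10* passed between the lines with scaling (0.59), a pseudocount of 0.1 (0.60), without the 5 noncoding RNAs (0.66), in limma-voom (0.61) and on leaving out THP1 DMSO replicate 3 (0.67) or MV4-11 DMSO replicate 2 (0.63). With 3 libraries a group, changes of single genes within the intervals given were not excluded.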
